A study of Mus musculus with 288 samples.

Results

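R848, a small synthetic ligand of the endosomal receptor TLR7, was given to mouse bone marrow-derived macrophages in 24 of the 288 wells of a screen of innate immune stimuli. The R848 wells were found by their titles. They stood in plate column 8 on each of 3 plates, with 8 wells a plate, and were compared with the 24 wells without a stimulus (NoStim, plate column 1) of the same plate and the same time. The cells came from C57BL/6 mice of 12 weeks and were grown with M-CSF over 7 days, in every group alike. The 3 plates differed in pretreatment, which was the solvent DMSO, BRD-6989 (1 µM) or dCA (100 nM). The labels give 24 h for both inhibitors and no duration for DMSO. The labels present dCA and BRD-6989 as inhibitors of CDK8, a kinase of the Mediator complex. Each R848 or NoStim group of a plate held 1 well at each of 15, 30, 45, 60, 90, 120, 150 and 180 min. The series text gives a range of 0 to 4 h, while the times here are those in the labels of the wells. For comparison, the 24 wells given CpG (plate column 6), a DNA ligand of TLR9, and the 24 given LPS (plate column 5), the ligand of TLR4, were used at the same plates and times. Stimulus and plate column cannot be told apart, nor can pretreatment, plate and library index. The labels name no separate cultures or animals, so every p-value measures the spread between wells, which may be technical. With 1 well for each plate, stimulus and time, there were no replicate wells. The spread in a fit therefore also holds any change of the response over time or between plates that the fit has no term for.

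TLR7 recognises single-stranded RNA inside endosomes, where it depends on the chaperone UNC93B1, and it signals through the adaptor MyD88 and the IRAK kinases. This signal frees NF-kB from its inhibitor IkB-alpha (encoded by Nfkbia) and activates the MAP kinases and interferon regulatory factors. In macrophages it is known for fast transcription of immediate early genes, chemokines and Tnf, followed by slower genes such as Il12b and Il10 and by feedback inhibitors. TLR9 uses MyD88 in the same compartment, whereas TLR4 uses MyD88 at the surface and the adaptor TRIF after uptake, and TRIF drives interferon beta.

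The promoters of 3 genes of the CXC chemokine cluster, of Nfkbia and of the marker gene Tnf are shown. They were picked by name among the 20 genes called higher with R848 in both phases described below. They do not stand for these genes as a set. The other 2 marker genes, Nfkbiz and Il10, are given by name only. Each sequence is the 120 bases before the start site in RefSeq (GRCm38.p6), 5′ to 3′ on the strand of the gene, with matches to the 10-letter NF-kB consensus in capitals.
Cxcl1 (chr5:90891125-90891244, plus strand): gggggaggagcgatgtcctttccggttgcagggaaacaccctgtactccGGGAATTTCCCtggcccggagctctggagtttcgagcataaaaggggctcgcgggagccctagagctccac
Cxcl2 (chr5:90903779-90903898, plus strand): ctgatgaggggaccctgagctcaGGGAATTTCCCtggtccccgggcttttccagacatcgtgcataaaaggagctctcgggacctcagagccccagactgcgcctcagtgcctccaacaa
Cxcl3 (chr5:90785981-90786100, plus strand): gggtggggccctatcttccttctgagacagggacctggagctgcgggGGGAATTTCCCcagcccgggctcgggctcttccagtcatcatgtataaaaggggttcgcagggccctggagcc
Nfkbia (chr12:55492648-55492767, minus strand): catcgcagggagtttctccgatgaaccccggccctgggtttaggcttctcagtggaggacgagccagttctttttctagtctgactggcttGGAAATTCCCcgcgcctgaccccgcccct
Tnf (chr17:35202008-35202127, minus strand): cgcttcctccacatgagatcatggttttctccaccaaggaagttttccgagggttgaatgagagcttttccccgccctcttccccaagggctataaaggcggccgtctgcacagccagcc

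Cxcl1, Cxcl2 and Cxcl3 held the same run of 11 letters, GGGAATTTCCC, which contains 2 overlapping matches of the consensus, 1 on each strand. The run began 71, 97 and 73 bases before the start site, respectively. It stood in 14 of 32851 promoters of 250 bases, or 0.0426%. Nfkbia held 1 match that began 29 bases before its start site, and Tnf held none within these 250 bases. Among other genes called higher in both phases, Junb, Pim1, Gadd45b, Klf6, Btg2 and Ccl3 also held none within 250 bases. Irf1, Tnfaip2 and Sdc4 held 1 match each. Over all promoters of that length the NF-kB consensus stood in 7.25%, searched on both strands. The shares that follow are by gene, with a match in any promoter of the gene, so they are not in the same unit as those over all promoters. The consensus stood in 10.5% of the 4377 genes with a promoter tested at 60 to 180 min. Of those higher with R848 it stood in 18 of the 97 genes with a promoter (18.6%), and of those lower in 2 of 14 (14.3%). Of the genes higher with R848 at 15 to 45 min, 9 of the 22 with a promoter (40.9%) held it, against 10.9% of the genes tested. The AP-1 site TGACTCA stood in 4.46% of all promoters, 3.7% of the genes tested at 60 to 180 min and 4 of the 97 genes (4.12%). The TATA box TATAAA stood in 12.4%, 7.77% and 19 of the 97 (19.6%), in the same order. Of the genes lower at 60 to 180 min, 0 of 14 held the AP-1 site and 2 of 14 (14.3%) the TATA box. Of the 22 genes higher at 15 to 45 min, 0 held the AP-1 site and 6 (27.3%) the TATA box, against 3.82% and 7.82% of the genes tested. A match is a stretch of letters, and no binding was measured.

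RNA was read from the 3' end, with random bases in the primer, and the gene values are counts of distinct molecules (UMI). UMI totals ran from 44598 to 111939 in R848 wells and from 51040 to 125974 in NoStim wells, with 4317 to 5924 and 4127 to 6433 genes detected. At 60 to 180 min neither passed a test over the 15 pairs (exact sign-flip permutation test, 2-sided, p = 0.649 and 0.552, adjusted over 5 measures 0.649 for both). The ribosomal RNA precursor Rn45s took a median of 46.3% of UMI in R848 wells and 52.3% in NoStim wells. It was lower with R848 in 12 of 15 pairs, by 3.99 ± 6.37 percentage points (mean ± SD; p = 0.0148, adjusted 0.0246, same exact test). With Rn45s left out before scaling, 139 genes were called at 60 to 180 min, against 142 with it. At 60 min the R848 wells were shallow, with 44598 to 63688 UMI against 77978 to 125974 in NoStim, and the DMSO R848 well at 60 min had the lowest Rn45s share, 34.0%. The 26 macrophage genes found of the 28 listed summed to 7245 to 12088 CPM in R848 wells and 6094 to 9996 CPM in NoStim wells, where CPM is counts per 1e6 UMI of the well after TMM scaling. The 5 B cell markers had no UMI in any of these 48 wells, and 6 of 7 T and NK cell markers, 4 of 5 mast cell, 5 of 6 stromal, 3 of 7 neutrophil, 5 of 8 dendritic cell and 5 of 6 erythroid and megakaryocyte markers were also at 0. The last 2 lists were carried by Bst2 and Pf4, which macrophages also express.

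Tnf, the cytokine used here as the first marker of the response (chromosome 17, 35199367 to 35202007, GRCm38.p6), was higher with R848 at every time and on every plate. At 60 to 180 min the lowest, median and highest of the 15 R848 wells were 125, 349.9 and 517 CPM, against 16.1, 70.0 and 174 CPM in the 15 NoStim wells (371 against 89 UMI in all). The ranges overlapped between groups, but R848 was higher in 15 of 15 pairs of 1 plate and time. The log2 fold change was 2.12 ± 0.28 (adjusted p = 6.52e-11) by edgeR's quasi-likelihood test with plate and time as blocks and Benjamini-Hochberg adjustment over 5780 genes, the test behind every adjusted p for a gene here. Values after ± are standard errors unless stated otherwise. In wells of pooled cells, fewer cells that express a gene and less RNA per cell cannot be told apart. At 15 to 45 min the 9 R848 wells stood at 126, 479.8 and 551 CPM and the 9 NoStim wells at 0, 13.9 and 308 CPM, higher in 9 of 9 pairs (log2 3.25 ± 0.37 (adjusted p = 3.08e-15)). The 308 CPM belonged to the DMSO NoStim well of 30 min, the highest NoStim value of Tnf. The mean difference of the 3 plates was 2.10 ± 0.37 log2 CPM at 15 min, 4.37 ± 0.10 at 45 min and 1.25 ± 0.43 at 180 min (mean ± SD, n = 3 plates). The value at 45 min was the largest of the 8 times, where the 3 NoStim wells held 0 UMI of Tnf and the R848 wells 111.

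Nfkbiz encodes IkB-zeta, a nuclear cofactor of NF-kB made in response to Toll-like receptors (chromosome 16, 55811375 to 55838954). Its 15 R848 wells of 60 to 180 min stood at 359, 692 and 954 CPM and its NoStim wells at 0, 36.7 and 364 CPM, with 762 against 93 UMI. R848 was higher in 15 of 15 pairs, and the ranges met only through the dCA NoStim well of 90 min. The log2 fold change was 3.15 ± 0.43 (adjusted p = 3.34e-05). At 15 to 45 min it was 2.48 ± 0.32 (adjusted p = 3.57e-12), higher in 9 of 9 pairs. The mean difference over the 3 plates ran from 1.55 ± 1.09 log2 CPM at 15 min to 4.71 ± 0.65 at 60 min, its largest, and stood at 2.92 ± 0.83 at 180 min (mean ± SD, n = 3 plates).

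Il10, an anti-inflammatory cytokine of macrophages (chromosome 1, 131019845 to 131024970), was rare: 36 UMI in the 15 R848 wells of 60 to 180 min and 1 UMI in the NoStim wells, a ratio of 36.4 with a 95% counting interval of 6.13 to 1478. The R848 wells stood at 0, 12.5 and 115 CPM. R848 was higher in 10 of 15 pairs, 1 of them with 1 UMI in both wells, and the other 5 pairs held none in either well. By time the 3 R848 wells held 0 UMI at 60 min, 4 at 90 min, 8 at 120 min, 11 at 150 min and 13 at 180 min. The DMSO wells held 0, 4, 6, 1 and 2 of these in that order, the dCA wells 0, 0, 1, 3 and 1, and the BRD-6989 wells 0, 0, 1, 7 and 10. The log2 fold change was 3.45 ± 0.92 (adjusted p = 0.0112). The call was lost with each plate and time pair as a block (adjusted p = 0.066), without the DMSO plate (0.337), without 120 min (0.077) and without 150 min (0.169). At 15 to 45 min, 3 UMI with R848 and 1 without were too few for a test.

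**Figure D1:**
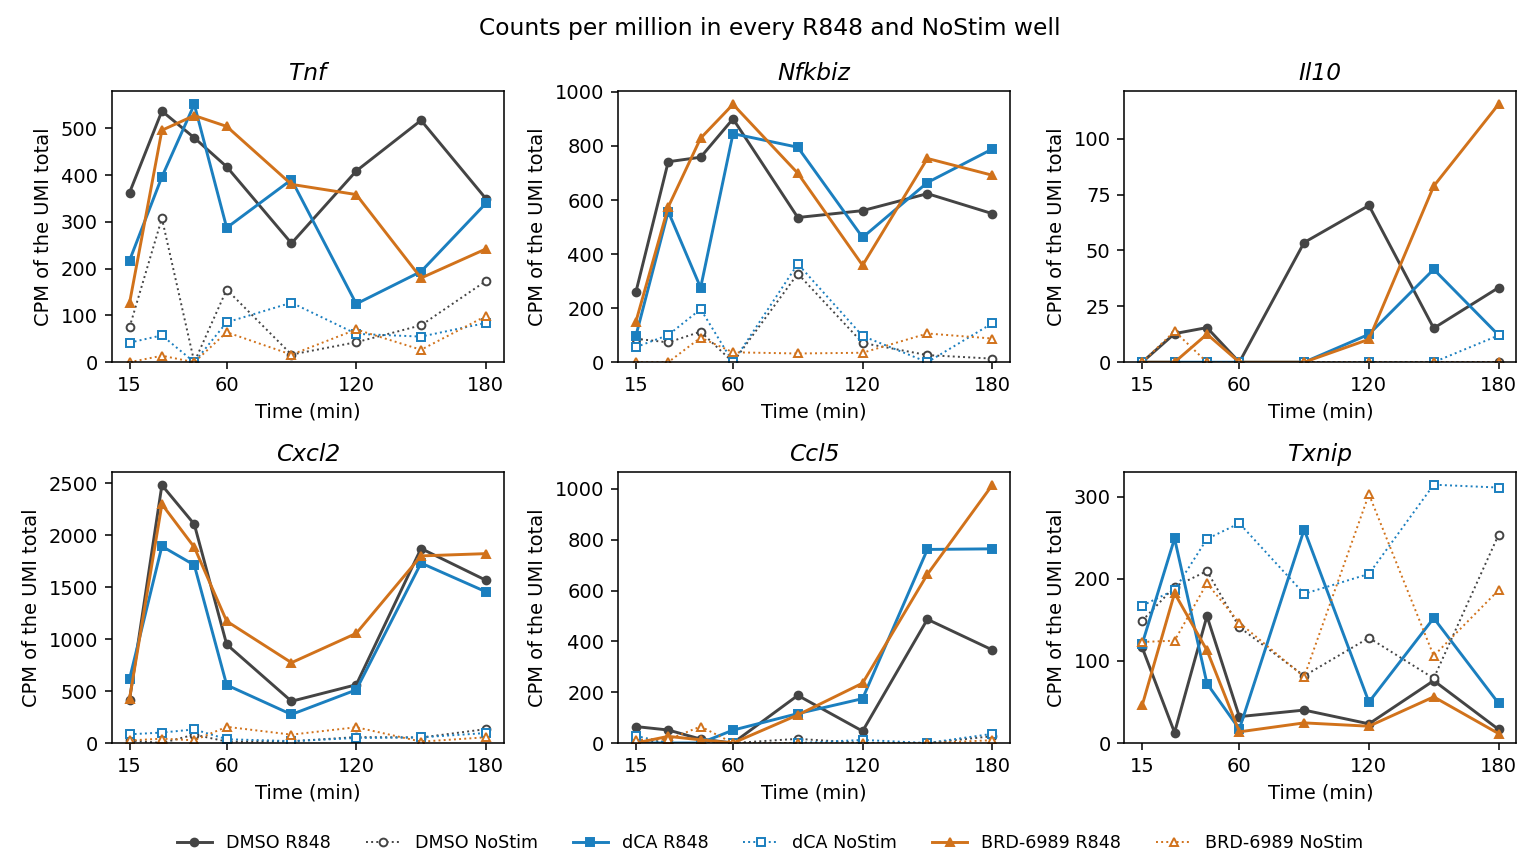
CPM (y axis, TMM-scaled UMI per 1e6) of Tnf, Nfkbiz, Il10, Cxcl2, Ccl5 and Txnip against time in minutes (x axis) in each of the 48 wells. Filled symbols and solid lines are R848 wells and open symbols and dotted lines NoStim wells, in black for DMSO, blue for dCA and orange for BRD-6989; Tnf and Nfkbiz lie above NoStim at every time, Ccl5 rises after 60 min and Txnip is lower with R848 in 14 of 15 pairs from 60 min on.

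At 60 to 180 min, 120 of 5780 genes tested (2.08%) were higher with R848 and 22 (0.381%) were lower. The median log2 change of all genes tested was -0.03. The rises took in chemokines, NF-kB feedback genes and survival genes, while the falls took in the MAP kinase phosphatase Dusp6 and the thioredoxin-binding gene Txnip. The number of genes called was 88 with total reads in place of UMI. Without the BRD-6989 plate it was 53, without the dCA plate 93 and without the 180 min wells 86. With any 1 plate or time left out, Tnf, Nfkbiz, Cxcl1, Cxcl2, Cxcl3, Ccl4, Ccl5, Il1b, Nfkbia, Nfkb2, Tnfaip2, Tnip3, Socs3, Junb, Klf6, Gadd45b, Pim1, Icam1, Tnfrsf1b, Cd83, Slfn2 and Txnip kept their calls. The other genes named by rule for this comparison lost theirs in at least 1 of these 8 fits.

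**Figure D2:**
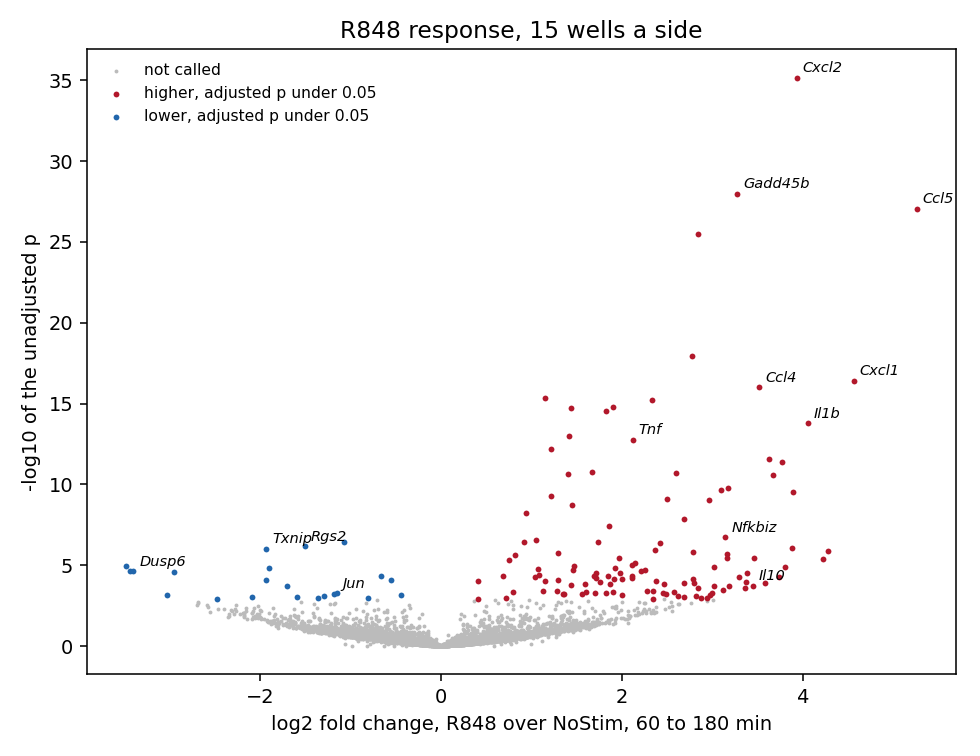
Log2 fold change of R848 over NoStim at 60 to 180 min (x axis) against -log10 of the unadjusted p of edgeR's quasi-likelihood test (y axis), 1 point per gene tested, 15 wells a side. Red points (120 genes) were higher and blue points (22 genes) lower at an adjusted p under 0.05; Cxcl2 has the smallest p and Ccl5 the largest rise.

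Of the 14 chemokine genes tested, 10 were higher with R848 at 60 to 180 min and 0 lower, with a median log2 change of 2.77 against -0.03 over all genes. Ccl5, which draws T cells and monocytes, was nearly absent without R848: the R848 wells stood at 0, 187 and 1015 CPM and the NoStim wells at 0, 0 and 35.9 CPM. This came to 394 against 8 UMI and a log2 change of 5.26 ± 0.46 (adjusted p = 1.75e-24). Cxcl2, a neutrophil attractant, stood at 275, 1055 and 1871 CPM in R848 wells and 13.3, 54.8 and 156 CPM in NoStim wells, ranges that did not overlap. Its change was 3.93 ± 0.21 (adjusted p = 4.14e-32). Its neighbours on chromosome 5 with the shared promoter run moved the same way: Cxcl1 stood at 64.3, 183 and 349 against 0, 0 and 66.4 CPM (4.56 ± 0.53 (adjusted p = 3.70e-14)). Cxcl3 stood at 0, 111 and 383 against 0, 0 and 80.1 CPM (3.90 ± 0.61 (adjusted p = 7.03e-08)). Ccl4, an attractant of monocytes and T cells, held 549, 1793 and 3344 CPM in R848 wells, all above the 32.3, 137 and 305 CPM of the NoStim wells (3.52 ± 0.21 (adjusted p = 8.24e-14)). Ccl3, its close relative, changed by 2.60 ± 0.29 (adjusted p = 5.36e-09) and the monocyte attractant Ccl7 by 2.50 ± 0.25 (adjusted p = 1.84e-07). The 3 remaining chemokines called, named after their values were seen, were Ccl2 (1.84 ± 0.37), Ccl12 (3.09 ± 0.48) and Ccl9 (0.41 ± 0.10). Ccl9 was high in every well, with 2387 UMI in the 24 NoStim wells.

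Of 11 secreted cytokine genes tested, 4 were higher and 0 lower (median log2 1.99): Tnf, Il10, Il1b and Il12b. Il1b, the precursor of a pyrogenic cytokine, stood at 12.3, 129 and 816 CPM with R848 and 0, 0 and 70.6 CPM without (4.06 ± 0.52 (adjusted p = 7.62e-12)), with the highest value in the DMSO well of 180 min. Il12b, the shared subunit of IL-12 and IL-23, changed by 2.57 ± 0.73 (adjusted p = 0.0232) on 76 UMI in the 24 R848 wells and 23 in the 24 NoStim wells, a call lost without the BRD-6989 plate (adjusted p = 0.378). Il6 had 1 UMI with R848 and 3 without, and the interferon gene Ifnb1 2 and 0, over the same 24 wells a side, too few for a test. Il12a, Il23a and Csf3 had no UMI in these wells.

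Of 18 tested genes of the list of NF-kB subunits and feedback inhibitors, 6 were higher with R848 and 0 lower (median log2 1.30). Nfkbia stood at 1135, 1789 and 2327 CPM in R848 wells, all above the 0, 134 and 394 CPM of the NoStim wells, a change of 3.62 ± 0.27 (adjusted p = 9.84e-10). Tnfaip2, a target induced by TNF, stood at 710.4, 1449.7 and 2577 against 0, 98.2 and 279.9 CPM and changed by 3.67 ± 0.30 (adjusted p = 6.94e-09). The subunit gene Nfkb2 changed by 3.88 ± 0.78 (adjusted p = 1.26e-04) on 77 against 4 UMI. Socs3, an inhibitor of cytokine receptor signalling counted in this list, changed by 3.77 ± 0.53 (adjusted p = 1.25e-09), and Tnip3, a partner of A20, by 1.67 ± 0.24 (adjusted p = 5.22e-09). Nfkbiz made the sixth. The RNase Zc3h12a, which degrades cytokine mRNA, had 52 UMI with R848 and 2 without, a ratio of 26.3 (95% counting interval 6.92 to 223), and lost its call without 180 min (adjusted p = 0.064). Stx11, a SNARE protein of membrane fusion, had 62 UMI against 1, a ratio of 62.7 (10.9 to 2516), and lost its call without the BRD-6989 plate (adjusted p = 0.107).

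Among immediate early genes, 5 of 14 tested were higher at 60 to 180 min and 1 was lower (median log2 1.12). The antiproliferative gene Btg2 rose by 3.38 ± 0.80 (adjusted p = 0.00248), Ier2 by 2.62 ± 0.78 (adjusted p = 0.0339), the AP-1 subunit Junb by 1.29 ± 0.30 (adjusted p = 0.00534) and Klf6 by 1.21 ± 0.19 (adjusted p = 1.23e-07), and the fifth, Ier3, named after its value was seen, by 2.95 ± 0.90. Jun, the partner of Fos in AP-1, was lower, at -1.15 ± 0.33 (adjusted p = 0.0269), but not without the BRD-6989 plate (adjusted p = 0.304), where Btg2 and Ier2 also lost their calls (0.164 and 0.381). Of 14 MAP kinase phosphatase and mRNA decay genes, 3 were higher and 1 lower. The phosphatase genes Dusp1 and Dusp2 were higher, at 2.45 ± 0.71 (adjusted p = 0.0267) and 3.36 ± 0.92 (adjusted p = 0.015), the latter on 39 against 2 UMI, a ratio of 19.7 (95% counting interval 5.11 to 169). Dusp6, whose product acts on ERK, was lower, with 4 UMI in R848 wells and 63 in NoStim wells (-3.40 ± 0.80 (adjusted p = 0.00211)). Without the DMSO plate its adjusted p was 0.196, without the BRD-6989 plate those of Dusp1 and Dusp2 were 0.599 and 0.426.

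Of 15 survival genes 7 were higher and 0 lower (median log2 1.43). Gadd45b, a stress and survival gene induced by NF-kB, changed by 3.28 ± 0.28 (adjusted p = 2.95e-25) and the kinase gene Pim1 by 2.84 ± 0.26 (adjusted p = 4.44e-23). Cflar, which encodes the caspase-8 inhibitor c-FLIP, changed by 0.82 ± 0.17 (adjusted p = 2.73e-04) and Traf1 by 3.29 ± 0.81 (adjusted p = 0.00385). Of 15 surface genes 6 were higher, among them the adhesion molecule Icam1 (2.33 ± 0.28 (adjusted p = 4.14e-13)) and the TNF receptor Tnfrsf1b (1.90 ± 0.23 (adjusted p = 9.55e-13)). The lectin receptor Clec4e changed by 1.86 ± 0.33 and the activation marker Cd83 by 1.06 ± 0.20. In the list of itaconate, nitric oxide and prostaglandin enzymes 2 of 5 were higher, the itaconate enzyme Irg1 (3.16 ± 0.66 (adjusted p = 2.39e-04)) and the superoxide dismutase Sod2 (1.92 ± 0.44 (adjusted p = 0.0015)). Of 14 stress genes 3 were higher: the chaperone Hspa1b (2.42 ± 0.47), the autophagy adaptor Sqstm1 (1.07 ± 0.24) and the reductase Txnrd1 (1.72 ± 0.42). Without the BRD-6989 plate the adjusted p rose to 0.398 for Cflar, 0.167 for Traf1, 0.0508 for Clec4e, 0.0556 for Irg1, 0.146 for Sod2 and 0.217 for Sqstm1. Without the DMSO plate it rose to 0.0618 for Hspa1b and 0.231 for Txnrd1.

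The receptor gene did not pass the test at 60 to 180 min, and its adaptor gene had too few UMI to be tested there. Tlr7 had 118 UMI in the 24 R848 wells and 113 in the 24 NoStim wells, with a log2 change of 0.29 ± 0.52 (adjusted p = 0.937) at 60 to 180 min. Myd88 had 16 and 13 UMI at these times, under the mean of 1 UMI a well set for the test. Of 19 genes of the receptor pathway tested, 2 were higher and 0 lower (median log2 0.12): the transcription factor Irf1 (2.79 ± 0.57 (adjusted p = 2.05e-04)) and the kinase gene Map3k8 (3.16 ± 0.67 (adjusted p = 3.96e-04)), which acts upstream of ERK. Neither passed without the BRD-6989 plate (adjusted p = 0.0736 and 0.108). Against 2.08% of all genes tested, 1 of 40 genes of the type I interferon response was higher, a share near the background: Slfn2 (1.44 ± 0.18 (adjusted p = 9.69e-13)), with a list median of 0.38. The interferon-induced Rsad2 and Ifit1 stood at 1.07 ± 0.43 (adjusted p = 0.317) and 1.23 ± 0.52 (adjusted p = 0.317).

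Over all genes tested 2.08% were higher and 0.381% lower, shares at which lists of the sizes below would hold few calls or none. The counts that follow are therefore not read as results about these lists. No gene of 21 for glycolysis and hypoxia passed in either direction, nor any of 5 for the CDK8 module and Mediator. In the list for sterol synthesis 1 of 20 was higher, Hmgcs1 (1.37 ± 0.40). Of 23 macrophage identity genes tested 1 was higher, the transcription factor gene Cebpb (2.11 ± 0.47 (adjusted p = 0.0011)), and 1 lower. Cebpb did not pass without the BRD-6989 plate (adjusted p = 0.296). Of 18 cell cycle genes 1 was lower, the cyclin gene Ccnd1 (-0.67 ± 0.16 (adjusted p = 0.00363)). Without the dCA plate the adjusted p was 0.47 for Ccnd1 and 0.413 for Hmgcs1.

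The other large falls lay outside these lists. Txnip, which binds thioredoxin and restrains glucose uptake, stood at 11.5, 32.2 and 260.3 CPM with R848 and 78.9, 182 and 315 CPM without (-1.93 ± 0.39 (adjusted p = 1.37e-04)). Rgs2, a regulator of G protein signalling, stood at 23.1, 73.6 and 231 against 71.3, 212 and 515 CPM (-1.50 ± 0.30 (adjusted p = 1.01e-04)). The phosphatase gene Dusp7 changed by -1.93 ± 0.49 (adjusted p = 0.00534), the haematopoietic cofactor Lmo2 by -2.95 ± 0.69 (adjusted p = 0.00214) and the chromatin remodeller Chd1 by -2.09 ± 0.63 (adjusted p = 0.0417). Lhfpl2, a gene for a membrane protein, changed by -1.90 ± 0.44 (adjusted p = 0.00141), the calpain inhibitor Cast by -1.69 ± 0.45 (adjusted p = 0.0111) and Ankhd1 by -1.59 ± 0.48 (adjusted p = 0.0388). The groups overlapped for each of these genes. Leaving out the BRD-6989 plate, only Txnip and Cast of these passed, and Rgs2 had an adjusted p of 0.146, Dusp7 0.219, Lmo2 0.264, Chd1 0.169, Lhfpl2 0.304 and Ankhd1 0.4. Cast missed without the dCA plate (0.227).

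At 15 to 45 min 30 of 5811 genes tested (0.516%) were higher and 3 (0.0516%) were lower, with 9 wells a side. Immediate early genes gave 7 of 16 higher, chemokines 7 of 14, NF-kB genes 3 of 15, mRNA decay and phosphatase genes 2 of 10, cytokines 2 of 9, and interferon response genes 0 of 38. Zfp36, whose product destabilises Tnf mRNA, had 173 UMI with R848 and 2 without, a ratio of 83.4 (95% counting interval 22.7 to 694). Its log2 change was 5.67 ± 0.66 (adjusted p = 1.12e-14) early and 1.41 ± 0.52 (adjusted p = 0.17) at 60 to 180 min. Egr1, an immediate early transcription factor, had 101 against 2 UMI, a ratio of 48.7 (13.1 to 407; log2 4.98 ± 0.82 (adjusted p = 4.99e-07)). Fos, the AP-1 subunit, had 39 against 0 UMI, at least 12.5-fold higher with the floor set at 3 counts over the group. The costimulatory ligand Tnfsf9 had 102 against 3 UMI (4.69 ± 0.83 (adjusted p = 6.26e-06)) and the histone demethylase Kdm6b 44 against 1 (4.19 ± 1.11 (adjusted p = 0.028)). Cxcl2 stood at 414, 1884 and 2481 CPM early with R848 and 0, 41.6 and 131 CPM without (4.60 ± 0.21 (adjusted p = 5.55e-90)), and Nfkbia changed by 3.44 ± 0.18 (adjusted p = 2.97e-75). The 3 lower genes were the cytokinesis gene Cep55 (1 against 36 UMI), Diap1 (2 against 52 UMI) and Aplp2 (-0.98 ± 0.22 (adjusted p = 0.00299)). In total 20 genes were called higher in both phases. DESeq2 called 35 higher and 9 lower. With 1 plate or time left out the total of 33 went down to 19 (without the BRD-6989 plate) and 20 (without 30 min). Zfp36, Egr1, Tnfsf9, Cxcl2, Tnf and Nfkbiz kept their calls in all 6 such fits, whereas Fos, Kdm6b, Cep55, Diap1 and Aplp2 lost theirs without 30 min (adjusted p = 0.227, 0.409, 0.392, 0.0602 and 0.077).

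**Figure D3:**
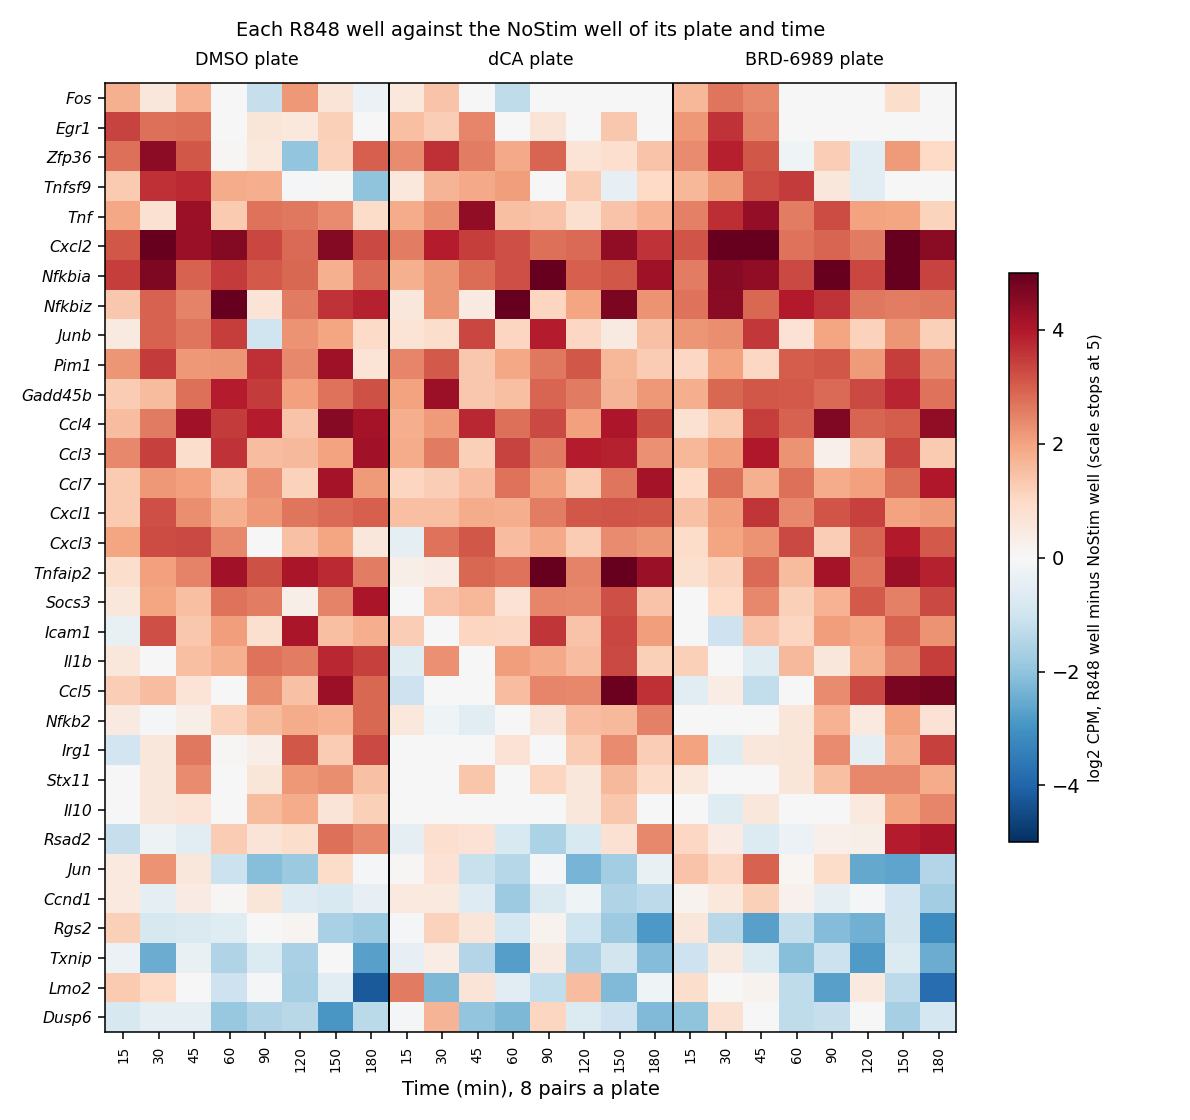
Difference in log2 CPM between each R848 well and the NoStim well of its plate and time (colour, red higher and blue lower, stopped at 5) for 32 genes in rows, with 8 times in minutes on each of the 3 plates in columns. Fos, Egr1 and Zfp36 are red mainly at 15 to 45 min, Cxcl2 and Nfkbia in every column, Ccl5 from 90 min on, and Lmo2 and Dusp6 at the bottom are blue in most late columns.

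Whether the response differed between the phases was tested directly as late minus early over all 48 wells, and 5 of 5793 genes (0.0863%) passed. Ccl5 gained 4.89 ± 0.97 (adjusted p = 0.0041), from a log2 change of -0.01 at 15 to 45 min. Mtdh, an NF-kB cofactor, gained 1.71 ± 0.32 (adjusted p = 0.0019) and Rassf4 2.03 ± 0.47 (adjusted p = 0.0377). Cd47, the signal that restrains phagocytosis, gained 1.70 ± 0.37 (adjusted p = 0.0142), from -0.93 ± 0.31 early to 0.80 ± 0.23 late. Zfp36 lost, at -4.27 ± 0.90 (adjusted p = 0.00834). Without the BRD-6989 plate 1 gene passed, Mtdh, and the adjusted p of Ccl5, Rassf4, Cd47 and Zfp36 was 0.903, 0.541, 0.175 and 0.175. Within 60 to 180 min, 7 of 5780 genes (0.121%) had a trend per hour, though 0 with total reads in place of UMI and 2 or 3 with any 1 plate left out. Per hour, log2 responses grew for the interferon-induced genes Rsad2 (1.72 ± 0.34 (adjusted p = 0.0231)) and Parp14 (2.05 ± 0.50 (adjusted p = 0.0438)), for Lrrc58 (0.66 ± 0.15 (adjusted p = 0.0337)) and for the immune transcript AW112010 (5.55 ± 1.31 (adjusted p = 0.0356)). AW112010 was higher with R848 in only 8 of 15 pairs and lower in 3, with the rest tied, so the size of its slope is uncertain. The response of Id2, an inhibitor of bHLH factors, shrank by the hour, at -0.85 ± 0.21 (adjusted p = 0.0422). Rsad2 kept its call with each plate left out, and without the DMSO plate the others did not pass (adjusted p = 0.387 for Parp14, 0.325 for Lrrc58, 0.16 for AW112010 and 0.735 for Id2). Rsad2 stood at a mean difference of 0.14 ± 0.82 log2 CPM at 120 min and 2.96 ± 0.96 at 180 min (mean ± SD, n = 3 plates).

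Of the 130 genes called higher in either phase, the time of the largest mean difference was 15 min for 0 genes, 30 min for 7, 45 min for 10, 60 min for 13, 90 min for 21, 120 min for 9, 150 min for 30 and 180 min for 40. Those at 30 min were Atf3, Btg2, Cxcl2, Dusp1, Fos, Ier2 and Zfp36, immediate early and feedback genes apart from Cxcl2. Tnf, Egr1, Junb and Irf1 were among those at 45 min, Nfkbiz, Ccl3 and Il12b at 60 min, and Ccl4, Nfkbia, Gadd45b and Pim1 at 90 min. Ccl5, Il10, Il1b, Icam1 and Tnfaip2 stood among those at 150 min, and Ccl7, Socs3, Nfkb2 and Irg1 among those at 180 min. The times rest on 3 pairs each and carry no test.

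Pretreatment was compared on the 3 plates at 60 to 180 min, with 5 pairs a plate in 1 fit. With R848, 29 of 5780 genes (0.502%) passed on the DMSO plate, 34 (0.588%) on the dCA plate and 44 (0.761%) on the BRD-6989 plate. Without 180 min these counts went to 19 in DMSO and 20 in BRD-6989, and without 150 min to 21 in dCA and 27 in BRD-6989. The response of Tnf was 2.15 ± 0.48 (adjusted p = 0.00253) after DMSO, 1.69 ± 0.49 (adjusted p = 0.0742) after dCA and 2.55 ± 0.50 (adjusted p = 1.31e-04) after BRD-6989, with the DMSO call lost without 150 min (adjusted p = 0.0691). The response of Nfkbiz was 3.19 ± 0.78 (adjusted p = 0.0894), 2.79 ± 0.74 (adjusted p = 0.131) and 3.48 ± 0.77 (adjusted p = 0.0332) in the same order, the last lost without 120 min (adjusted p = 0.193) or 180 min (0.259). On the DMSO plate 27 genes were higher and 2 lower, and DESeq2 called 40 and 20. For Cxcl2 the 3 responses were 4.22, 4.00 and 3.66, and for Ccl4 3.78, 3.12 and 3.70. The doses differ between the compounds (100 nM and 1 µM), so each was set against DMSO and not against the other, and both comparisons share the DMSO wells. No gene passed for a response that differed from DMSO, in either comparison by edgeR. At an unadjusted p under 0.05 there were 376 of the 5780 genes for dCA and 292 for BRD-6989. With no difference at all, a share of about 0.05 of the genes would be under it, so these counts are not read as differences. DESeq2 called 5 for each. The Tnf response in dCA differed from DMSO by -0.46 ± 0.69 (95% interval -1.81 to 0.89) and in BRD-6989 by 0.40 ± 0.67 (-0.92 to 1.72). For Nfkbiz the differences were -0.39 ± 1.03 (-2.42 to 1.63) and 0.29 ± 1.10 (-1.86 to 2.44). The intervals leave room for differences of over 1 log2 unit in either direction for Nfkbiz, so the plates are not shown to respond alike.

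The smallest p for dCA belonged to Sdc4, a heparan sulfate proteoglycan of the cell surface. Its R848 wells stood at 2007 ± 168 CPM on the DMSO plate, 939.6 ± 385 on the dCA plate and 1171 ± 363 on the BRD-6989 plate (mean ± SD, n = 5 wells). The NoStim wells stood at 409 ± 151, 474 ± 88.4 and 576 ± 176 CPM. The 5 DMSO R848 wells lay above all R848 wells of the other 2 plates, while the NoStim groups overlapped. The response was 2.29 ± 0.23, 0.95 ± 0.23 and 1.00 ± 0.23, so that dCA differed from DMSO by -1.34 ± 0.32 (adjusted p = 0.206), 95% interval -1.97 to -0.70, and BRD-6989 by -1.29 ± 0.32 (adjusted p = 0.167), 95% interval -1.91 to -0.66. The smallest p for BRD-6989 belonged to Adam17, the protease that sheds TNF: the response was -0.27 ± 0.61 after DMSO, 0.10 ± 0.57 after dCA and 3.48 ± 0.66 after BRD-6989. The difference from DMSO was 3.75 ± 0.88 (adjusted p = 0.11), 95% interval 2.03 to 5.47. The R848 wells held 37, 50 and 122 UMI of Adam17 and the NoStim wells 52, 52 and 11. Neither gene passed the adjustment.

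**Figure D4:**
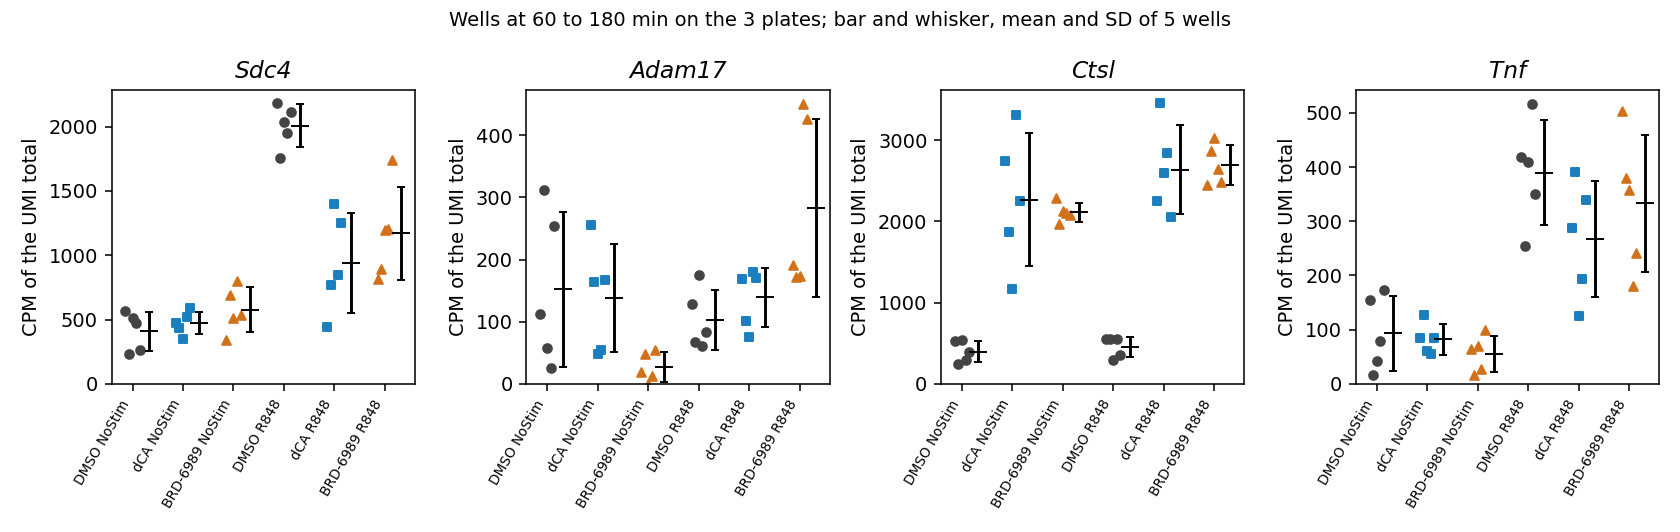
CPM (y axis, TMM-scaled UMI per 1e6) of Sdc4, Adam17, Ctsl and Tnf in each well of 60 to 180 min, by pretreatment and stimulus (x axis); points are wells, and bar and whisker are mean and SD of 5 wells. Sdc4 with R848 is highest on the DMSO plate, Adam17 without a stimulus is lowest on the BRD-6989 plate, and Ctsl is higher on both inhibitor plates with and without R848.

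Levels within the R848 wells did differ between plates. Such a difference also holds any that was there without a stimulus. Apart from Ctsl and Sdc4, NoStim levels of the genes below are not given, so their differences are not read as effects on the response. Against DMSO, 23 of 5780 genes (0.398%) passed in dCA and 19 (0.329%) in BRD-6989. For dCA 9 passed without 60, 150 or 180 min and 14 without 120 min. The lysosomal protease Ctsl stood at 457 ± 126, 2638 ± 549.6 and 2696 ± 245 CPM in R848 wells of the DMSO, dCA and BRD-6989 plates (mean ± SD, n = 5), with log2 differences of 2.54 ± 0.19 (adjusted p = 2.20e-37) and 2.58 ± 0.19 (adjusted p = 1.18e-38). Its NoStim wells stood at 397 ± 134, 2269 ± 820.1 and 2111 ± 113 CPM, so the same order held without R848, and its response differed from DMSO by 0.06 ± 0.26 and 0.18 ± 0.26. The ferritin gene Fth1 was higher by 0.68 ± 0.10 (adjusted p = 6.99e-08) and 0.71 ± 0.10 (adjusted p = 7.66e-09). In dCA Abhd12, a lysophospholipase, was higher by 1.83 ± 0.29 (adjusted p = 6.58e-07) and the metalloproteinase inhibitor Timp2 by 1.31 ± 0.26 (adjusted p = 6.19e-04). Nptx1, a neuronal pentraxin, had 2 UMI with R848 after DMSO, 50 after dCA and 77 after BRD-6989. Lower in dCA were Sdc4 (-1.14 ± 0.22 (adjusted p = 4.58e-04)), the splicing cofactor Srrm1 (-2.53 ± 0.65 (adjusted p = 0.0262)), Lrmp (0 against 33 UMI) and Tnrc18 (0 against 36 UMI). Sdc4 lost its call without 60 min (adjusted p = 0.0585), and Srrm1, Lrmp and Tnrc18 with any time left out (Srrm1 0.056 to 0.204, Lrmp 0.0889 to 0.348, Tnrc18 0.0585 to 0.359). In BRD-6989 Zfp36l1, an mRNA decay factor, was higher by 3.14 ± 0.62 (adjusted p = 4.70e-04), with R848 wells at 38.3 ± 28.9 CPM in DMSO and 339 ± 56.0 in BRD-6989. No gene was lower in BRD-6989 by edgeR; DESeq2 called 15 lower and 35 higher, and 8 lower and 15 higher for dCA.

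CpG, the TLR9 ligand, was set against R848 well by well at 60 to 180 min, and 8 of 5348 genes tested (0.15%) passed, each higher with R848. The monocyte attractant Ccl7 stood at 555, 1326 and 2461 CPM with R848 and 272, 653 and 1136 CPM with CpG, higher in 15 of 15 pairs (1.09 ± 0.12 (adjusted p = 5.32e-15)). Tnf stood at 113, 328 and 489 against 44.6, 136 and 412 CPM, also higher in 15 of 15 (1.22 ± 0.25 (adjusted p = 0.00261)). Ccl3 differed by 1.45 ± 0.20 (adjusted p = 3.29e-09), Cxcl2 by 1.04 ± 0.19 (adjusted p = 0.00286), Ccl4 by 0.82 ± 0.11 (adjusted p = 1.06e-09) and Nfkbia by 0.51 ± 0.11 (adjusted p = 0.00286). Thus 4 of 14 chemokines were higher with R848, whereas Nfkbiz did not pass (0.43 ± 0.15 (adjusted p = 0.507)). CPM values here are scaled within these 30 wells and so differ a little from those against NoStim. The CpG wells had a median Rn45s share of 57.4% against 46.3% and a median of 68384 UMI against 85933, and the part of the UMI totals in these results was not tested. With the Rn45s share as a covariate 10 genes passed, each higher with R848. They included the 6 genes with values above that had passed, Tnf at a log2 difference of 1.42 (adjusted p = 0.00758). The median of all genes was 0.08 in favour of R848 and 0.24 without TMM scaling, where 22 genes were higher and 1 lower. With DESeq2, 18 were higher and 3 lower. Without the BRD-6989 plate 4 genes passed, Tnf and Nfkbia not among them (adjusted p = 0.105 and 0.29).

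Against LPS, the TLR4 ligand, 40 of 5500 genes (0.727%) were lower with R848 and 5 (0.0909%) higher. Interferon response genes gave 10 of 41 lower and 0 higher (median log2 -0.99, against 0.06 over all genes). Rsad2, the antiviral enzyme viperin, stood at 104, 366 and 2247 CPM with R848 and 293, 3444 and 11034 CPM with LPS, lower with R848 in 15 of 15 pairs (-2.98 ± 0.21 (adjusted p = 2.05e-09)). Ifit1, which binds foreign RNA, stood at 0, 45.4 and 368 against 101, 995 and 2094 CPM, lower in 15 of 15 (-3.46 ± 0.29 (adjusted p = 2.61e-09)). Cmpk2, which lies beside Rsad2 in the genome, differed by -2.58 ± 0.31 (adjusted p = 1.15e-11) and the antiviral GTPase Mx1 by -2.45 ± 0.39 (adjusted p = 1.04e-06). Ccl5, which led the R848 rises over NoStim, was lower than with LPS (-1.47 ± 0.18 (adjusted p = 4.50e-11)), with medians of 183 and 571 CPM. Of 16 chemokines tested 4 were lower, of 11 cytokines 2, and of 22 NF-kB genes 3. The cell cycle inhibitor Cdkn1a was lower by -1.03 ± 0.16 (adjusted p = 2.40e-07). Tnf and Nfkbiz did not pass (-0.29 ± 0.20 (adjusted p = 0.907) and 0.45 ± 0.16 (adjusted p = 0.276)). Higher with R848 were Id2 (0.63 ± 0.15 (adjusted p = 0.00897)), Papd5 (63 against 3 UMI), Ago4 (29 against 1), Zfml (63 against 7) and Ascc2 (51 against 5). The total of 45 was 25 without 150 min and 26 without the DMSO plate, and without the BRD-6989 plate none of these 5 passed (adjusted p = 0.593, 0.669, 0.094, 0.568 and 0.67).

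TF-seq, the second readout, gave counts for 58 reporter constructs, each read through its own tag and named for a transcription factor or promoter. How the constructs entered the cells is not given in the sources used here. Between reporters of a well, 11 of 58 (19%) passed at 60 to 180 min and 5 of 58 (8.62%) at 15 to 45 min. NFkB_1 took 20.4% ± 2.96 of the panel with R848 and 4.27% ± 1.95 without (mean ± SD, n = 15 wells), from 17.2% to 24.9% with R848. This was above every NoStim well, and the log2 change within the panel was 2.52 ± 0.11 (adjusted p = 1.66e-40 by edgeR). At 15 to 45 min it was 2.10 ± 0.16 (adjusted p = 8.21e-32). IFNB1_44, named for the interferon beta promoter, rose from 1.37% ± 0.420 to 3.47% ± 0.438 (1.51 ± 0.10, adjusted p = 2.70e-26), and early by 1.07 ± 0.16. NICD_25, named for the Notch intracellular domain, and IRF1_55 rose by 0.62 ± 0.15 and 0.42 ± 0.15 (adjusted p = 4.91e-04 and 0.0304), with IRF1_55 lost without 90, 150 or 180 min. Shares fell for NRF2_4, named for the antioxidant factor, from 3.87% ± 0.985 to 1.45% ± 0.341 (-1.19 ± 0.09, adjusted p = 6.67e-19). AP1_33 went from 7.33% ± 1.16 to 4.06% ± 1.16 (-0.68 ± 0.08, adjusted p = 1.22e-11). CLOCK_30, IRF3.7_45, TFEB_28 and CEBPb_26 changed by -0.71 ± 0.09, -0.49 ± 0.09, -0.39 ± 0.08 and -0.36 ± 0.10, and a seventh, MAF_36, named after its value was seen, by -0.37 ± 0.11. At 15 to 45 min NRF2_4 (-0.48 ± 0.12) and TFEB_28 (-0.45 ± 0.15) were lower, but not without 45 min, where 3 reporters passed.

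These falls are shares of a panel that itself grew. The reporter total of a well was 4.96-fold higher with R848 at 60 to 180 min, and per 1000 UMI without Rn45s 4.80-fold, higher in 15 of 15 pairs (exact sign-flip permutation test, 2-sided, p = 6.104e-05, the smallest these 15 pairs can give, adjusted 0.0001526). The totals stood at 3340, 5345 and 6828 in the lowest, median and highest R848 well and at 716, 1084 and 1478 in NoStim. Per UMI, each of the 58 reporters was higher in 15 of 15 pairs, from 1.82-fold to 25.2-fold with a median of 4.35-fold. Scaled to UMI in place of the panel, all 58 were called higher at 60 to 180 min and 32 at 15 to 45 min. NRF2_4 and AP1_33 then rose by 0.83 and 1.35 (log2) at 60 to 180 min, so that no reporter fell on that scale. The reporter minP_58, named for a minimal promoter, was 4.73-fold higher per UMI, against 1.82-fold for NRF2_4 and 2.59-fold for AP1_33. Within the panel minP_58 changed by 0.14 ± 0.11 (adjusted p = 0.465 by edgeR). A rise per UMI is therefore not a measure of the named factor, and the source of the shared rise was not tested. With reporter totals and no TMM scaling, 3 were higher and 14 lower at 60 to 180 min and 2 and 7 at 15 to 45 min. The R848 response of the reporters did not pass for a difference from DMSO in either inhibitor, by edgeR (3 of 58 for dCA and 5 of 58 for BRD-6989 at an unadjusted p under 0.05; 0 by DESeq2). Scaled to UMI, 4 passed for each inhibitor, each with a smaller response than in DMSO.

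**Figure D5:**
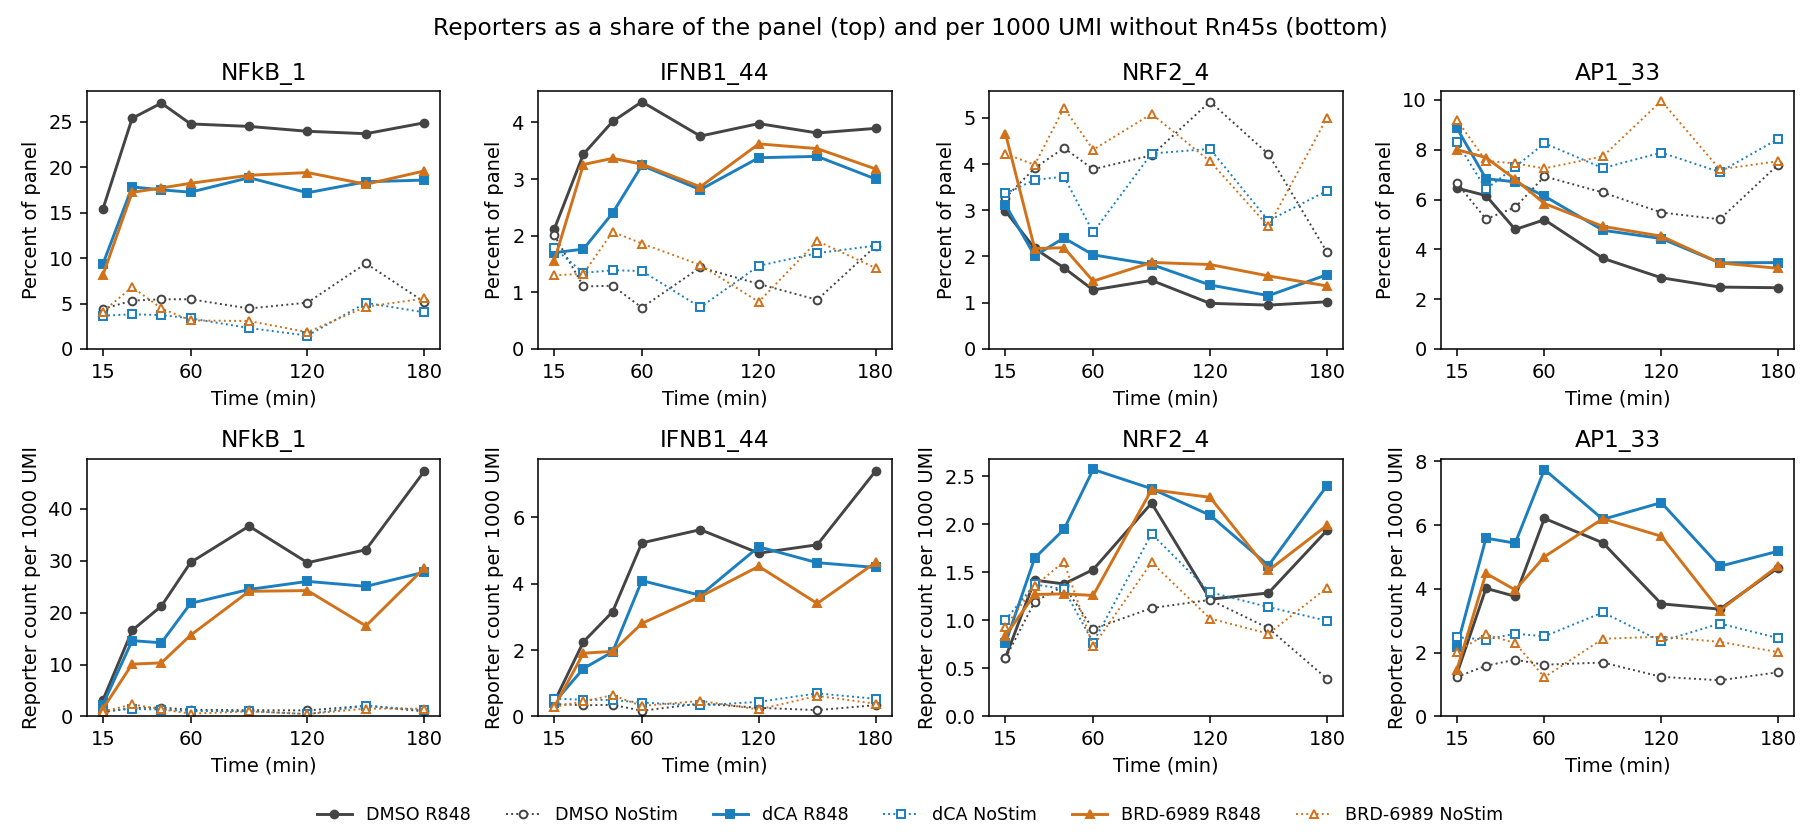
Reporters NFkB_1, IFNB1_44, NRF2_4 and AP1_33 against time in minutes (x axis) in each R848 well (filled) and NoStim well (open) of the 3 plates, as a percent of all reporter counts of the well (top) and as counts per 1000 UMI without Rn45s (bottom). NFkB_1 and IFNB1_44 are higher with R848 on both scales, whereas NRF2_4 and AP1_33 are lower as a share and higher per UMI at 60 to 180 min.

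The genes whose R848 minus NoStim differences were most like those of each marker over the 24 pairs were, for Tnf, Trim47 (Pearson r = 0.663), Plin2 (0.636) and Lasp1 (0.633). For Nfkbiz they were Atf7ip (0.630), Mroh1 (0.607) and Qars (0.598), and for Il10 Tra2b (0.704), Mapkapk2 (0.702) and Fyb (0.702). The 24 pairs share 3 plates, 8 times and the depth of each well, and the values are a description only. They were picked as the highest among all genes tested, and values of this size can arise that way by chance. Mapkapk2, whose kinase acts downstream of p38, and Fyb, an adaptor of immune cells, had their largest response at 150 min, as did Il10. The time and the correlation come from the same differences, so this is not a separate observation.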

How the data were processed

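Counts of distinct UMI and total reads per gene (23481 genes) and reporter counts (58) were deposited by the authors, per the file headers. The deposited normalized reporter values were identical to the reporter counts and were not used; whether the counts carry a normalization is not given. Per the submitters' processing notes, BWA, edgeR and the build mm10 were used, with no version given. Here edgeR 4.0.16 in R 4.3.3 was used (TMM, robust quasi-likelihood, genes averaging 1 UMI or more per well, while 8773 of all genes had none in any well). Standard errors are the log2 change over the root of F, and log2 CPM had a prior count of 2. Tests were 2-sided and tried on simulated data. Alternatives were DESeq2 1.42.0, other scalings and filters, total reads, replicate blocks and limma 3.58.1 for reporters. Wells were grouped by title, and none was left out. Intervals for ratios of counts are exact at 95% and cover counting error only. Those for log2 differences are normal approximations at 95% from the standard errors above, and are narrower than the F test would give.

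Members, gene lists and tests were chosen with earlier results of these data known. Genes named were Tnf, Nfkbiz, Il10, Tlr7 and Myd88; the 10 largest changes each way at 60 to 180 min (mean of at least 20 CPM, direction in 12 of 15 pairs); 6 each way early; 5 each way by p for late minus early, trend and inhibitor comparisons (the smallest p where none passed); 6 each way by p for CpG, LPS and reporters; up to 4 each way per list; and 3 genes per marker by correlation. Predicted, Riken and mitochondrial genes and Rn45s were replaced by the next, and some genes and reporters that this rule names are not reported here. Promoters come from RefSeq (GRCm38.p6), which held 97 of the 120 genes higher at 60 to 180 min.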

Additional observations from a re-analysis of the deposited data

Results flagged for a closer look

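In groups of 5 wells (1 plate and stimulus at 60 to 180 min), 1 well stood far from the other 4 in 3 of 58 groups tested. Chance does so in about 1 in 20 groups of replicates. The 5 wells of a group are 5 different times, so that rate need not hold here. The DMSO NoStim well of 90 min detected 4652 genes, against 5174 to 5330 in the other 4. The DMSO NoStim well of 150 min gave NFkB_1 9.42% of its reporter panel, against 4.45% to 5.47%. The dCA NoStim well of 180 min had an Il10 level of 5.26 log2 CPM, against 4.72 in the other 4, which is 1 UMI against 0. A group with UMI in only 1 well is always flagged by this rule.

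The R848 response differed between 15 to 45 min and 60 to 180 min for 5 genes, by edgeR's test of late minus early. The log2 differences were 4.89 for Ccl5, 2.03 for Rassf4, 1.71 for Mtdh and 1.70 for Cd47, and -4.27 for Zfp36.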

How the results depend on the processing

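Counts of genes called kept within 1.5 times under the settings tried, except as follows. With total reads in place of UMI, the counts were 88 at 60 to 180 min (142 with UMI), 15 at 15 to 45 min (33), 2 for late minus early (5), 0 for the trend (7), 11, 11 and 17 on the DMSO, dCA and BRD-6989 plates (29, 34 and 44), 6 and 7 for levels in dCA and BRD-6989 against DMSO (23 and 19) and 22 against LPS (45). With DESeq2 they were 12 for late minus early, 4 for the trend, 60 on the DMSO plate, 5 for each inhibitor's difference in response (0), 50 for levels in BRD-6989 and 21 against CpG (8). Without TMM they were 4 for the trend, 14 for levels in dCA, 23 against CpG, and for reporters 17 late (11) and 9 early (5). Without a low-count filter they were 1 for the trend and 11 for levels in dCA, and with the Rn45s share as a covariate 29 for levels in BRD-6989. With reporters scaled to UMI they were 58 late, 32 early and 4 for each inhibitor. The replicate block of plate and time pairs gave 117 at 60 to 180 min and ended the call of Il10. With 1 plate or time left out, the counts ran from 53 to 136 late, 19 to 33 early, 1 to 6 for late minus early, 2 to 3 for the trend, 19 to 32, 21 to 40 and 20 to 39 on the 3 plates, 0 to 1 for each inhibitor's difference in response, 9 to 20 and 13 to 18 for levels in dCA and BRD-6989, 4 to 12 against CpG, 25 to 66 against LPS, and for reporters 10 to 11 late, 3 to 6 early, 0 for dCA and 0 to 1 for BRD-6989. The cause of these shifts was not tested, though fewer wells entered the last set.

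Signs turned only for values that had not passed and for panel shares. For Tnf, with 1 plate or time left out, the trend ran from -0.60 to 0.015, the BRD-6989 level difference from -0.48 to 0.065 and the difference from LPS from -0.59 to 0.053, and the dCA minus DMSO response was 0.17 with reads. Nfkbiz had a BRD-6989 minus DMSO response of -0.11 with reads and -1.12 to 0.76 with a time left out, a dCA level difference of -0.031 with DESeq2 and a BRD-6989 one of -0.073 with DESeq2 and -0.19 with the covariate. Il10 had a BRD-6989 minus DMSO response of -1.33 to 0.25 with a time left out, a BRD-6989 level difference of 0.23 with the covariate and -1.21 to 0.39 with a time left out, and -0.19 to 1.02 against LPS with a plate or time left out. Scaled to UMI, NRF2_4 was at 0.83, CLOCK_30 at 1.33, AP1_33 at 1.35, IRF3.7_45 at 1.55, TFEB_28 at 1.63 and CEBPb_26 at 1.66 late, and NRF2_4 at 0.025 and TFEB_28 at 0.052 early. Over genes and reporters named, 1973 values kept direction and call, 310 lost a call, 14 gained one, 25 moved and 23 turned. At 44598 UMI in the shallowest R848 well, genes under a mean of 1 UMI were not tested, Il6 and Ifnb1 among them.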
